A study of Mus musculus with 6 samples.

Results

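The insulin-like growth factor (IGF) family was followed in mouse brain astrocytes through its ligands *Igf1* and *Igf2*, its receptors *Igf1r* and *Igf2r*, and its binding proteins *Igfbp2* to *Igfbp7*. The members were taken by symbol, and all 10 had a row among the 17193 genes measured. IGF ligands signal through the tyrosine kinase encoded by *Igf1r*, whereas the product of *Igf2r*, also known as the mannose 6-phosphate receptor, takes up *Igf2* ligand for breakdown in lysosomes. Secreted binding proteins hold most of the ligand, extend its life and either restrain or aid its access to the receptor. In the brain, the family is known for roles in growth, survival and metabolism of neurons and glia, and astrocytes are among the cells that secrete its binding proteins.

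C57BL/6 mice of wild-type genotype, aged 3 months, gave the brains, and astrocytes were taken from them with microbeads against ACSA-2, the surface protein encoded by *Atp1b2*. The controls are labelled mock, and the other mice received quinpirole, an agonist of the dopamine receptor DRD2. There were 3 libraries per group, named here mock 1 to 3 and quinpirole 1 to 3, and the groups shared strain, genotype, age and tissue. The labels give neither the dose and duration of quinpirole nor the number of mice behind a library, so p-values measure the spread between these libraries, which may be technical in part.

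Levels are FPKM values, fragment numbers scaled to the length of the transcript and the depth of the library, computed by the authors. The tables hold no counts, and depth read from the steps between low values was 22300000 to 27450000 fragments per library. Summed over all genes, the FPKM of a library came to 401769 to 413730 in the mock group and 425244 to 437164 in the quinpirole group. Of 14 astrocyte markers, 12 had a mean of at least 1 FPKM, with *Gfap* at 482 to 560 FPKM and *Aldh1l1* at 165 to 182 FPKM, but the gap junction gene *Gjb6* was at 0.0562 to 0.281 FPKM. The astrocyte markers summed to 1558 to 1716 FPKM in mock and 1534 to 1566 FPKM in quinpirole libraries. By the test described below, 3 of the 12 tested, *Atp1b2*, *Slc1a2* and *Slc4a4*, were lower after quinpirole, against 5.18% of all tested genes. After the correction for transcript length, also described below, 1 of the 12 was lower, against 2.06% of all tested genes. Microglial markers were also present, at summed levels of 911 to 983 FPKM in mock and 968 to 1067 FPKM in quinpirole libraries. Mural cell markers summed to 4806 to 5137 and 5155 to 5514 FPKM, almost entirely through the contractile genes *Acta2* and *Tagln*, while the pericyte genes *Abcc9* and *Higd1b* were under 0.1 FPKM in every library. In bulk RNA, fewer cells of a type and less RNA per cell cannot be told apart.

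Quinpirole and mock libraries were compared on log2(FPKM + 1) with limma across the 12255 genes with a mean of at least 1 FPKM, and a gene passed the test at a Benjamini-Hochberg adjusted p under 0.05. All 10 members were tested and 5 passed. *Igf1r*, *Igf2r* and *Igfbp5* fell, and *Igfbp2* and *Igfbp3* rose. The share of all tested genes that passed was 10.9%, with 5.74% higher and 5.18% lower. The libraries of the groups did not overlap for 6 members, against 36.9% of all tested genes. The median log2 fold change was 0.05 over the members and 0.02 over all tested genes.

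The promoters of the 5 members that passed are shown because these genes moved in both directions. Each sequence is the 250 bases before the RefSeq start site on GRCm38.p6, written 5′ to 3′ on the strand of the gene, with capitals for a GC box (GGGCGG), an E-box (CACGTG) or a TATA element (TATANA), searched on both strands. The motifs were chosen with the sequences and results in view. The windows are chr7:67952007-67952256 (plus strand) for *Igf1r*, chr17:12769707-12769956 (minus) for *Igf2r*, chr1:72874866-72875115 (minus) for *Igfbp5*, chr1:72824230-72824479 (plus, the upstream of 2 listed starts) for *Igfbp2* and chr11:7213924-7214173 (minus) for *Igfbp3*.
Igf1r: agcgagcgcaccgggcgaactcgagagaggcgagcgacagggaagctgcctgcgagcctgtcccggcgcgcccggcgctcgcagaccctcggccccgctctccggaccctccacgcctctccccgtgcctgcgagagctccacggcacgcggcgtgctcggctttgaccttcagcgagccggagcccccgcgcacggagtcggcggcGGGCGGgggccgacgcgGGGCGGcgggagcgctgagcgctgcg
Igf2r: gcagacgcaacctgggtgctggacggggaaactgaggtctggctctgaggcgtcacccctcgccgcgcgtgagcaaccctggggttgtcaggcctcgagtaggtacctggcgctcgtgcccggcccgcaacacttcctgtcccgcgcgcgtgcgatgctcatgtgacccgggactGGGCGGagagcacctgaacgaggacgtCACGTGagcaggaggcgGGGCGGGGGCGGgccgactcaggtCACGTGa
Igfbp5: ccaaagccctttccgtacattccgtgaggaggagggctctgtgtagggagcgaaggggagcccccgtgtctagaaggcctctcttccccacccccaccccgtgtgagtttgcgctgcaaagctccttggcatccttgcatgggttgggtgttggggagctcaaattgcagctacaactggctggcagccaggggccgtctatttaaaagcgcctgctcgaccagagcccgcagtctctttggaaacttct
Igfbp2: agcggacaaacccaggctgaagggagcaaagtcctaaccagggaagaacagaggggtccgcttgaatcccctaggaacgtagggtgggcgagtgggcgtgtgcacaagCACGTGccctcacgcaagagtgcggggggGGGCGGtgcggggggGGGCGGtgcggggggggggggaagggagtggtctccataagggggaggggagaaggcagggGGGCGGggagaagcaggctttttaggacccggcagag
Igfbp3: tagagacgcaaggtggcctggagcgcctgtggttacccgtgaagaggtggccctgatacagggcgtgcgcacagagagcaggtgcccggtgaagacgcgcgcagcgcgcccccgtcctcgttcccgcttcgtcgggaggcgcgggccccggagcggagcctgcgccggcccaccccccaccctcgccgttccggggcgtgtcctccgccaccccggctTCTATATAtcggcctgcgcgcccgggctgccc
The *Igf1r* window held 2 GC boxes, and the *Igf2r* window held 3 GC boxes and 2 E-boxes. In *Igfbp2*, which moved the other way, there were 3 GC boxes and 1 E-box. The *Igfbp3* window carried 2 overlapping TATA elements that together span 32 to 25 bases before the start, and none of these letters occurred in the *Igfbp5* window. Of 32851 mouse promoter windows of the same length, 32.7% held a GC box, 6.02% an E-box and 22.6% a TATA element. The core of the antioxidant response element (TGACNNNGC), bound by Nrf2, and a FoxO element (TGTTTAC) occurred in no window of the 10 members, against 10.2% and 3.17% of all windows.

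Both receptors were lower after quinpirole by about the same proportion. *Igf1r* (ENSMUSG00000005533, chr7:67952827-68233668, plus strand, GRCm38) had 31.2, 31.1 and 26.1 FPKM in mock 1 to 3 and 22.9, 20.5 and 23.3 FPKM in quinpirole 1 to 3. Every quinpirole library lay below every mock library. The mean fell by 24.5%, from 29.5 ± 2.90 to 22.2 ± 1.52 FPKM (SD, n = 3), a log2 fold change of -0.39 ± 0.08 (SE) with a limma adjusted p of 0.0322.

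*Igf2r* (ENSMUSG00000023830, chr17:12682406-12769664, minus strand) had 18.3, 16.9 and 15.4 FPKM in the mock libraries and 13.3, 11.9 and 12.7 FPKM in the quinpirole libraries, again without overlap. The mean fell by 25.0%, from 16.8 ± 1.45 to 12.6 ± 0.685 FPKM (SD, n = 3), with a log2 fold change of -0.39 ± 0.07 (SE) and a limma adjusted p of 0.0258. Within a library, the *Igf1r* level was 1.70 to 1.84 times the *Igf2r* level in the mock group and 1.72 to 1.84 times in the quinpirole group, so the ratio overlapped between the groups. The receptors differed in how far their decrease depended on transcript length, described after the binding proteins. Without mock 3 both receptors passed, each with a limma adjusted p of 0.0270. Without any other library neither did, and the adjusted p then lay between 0.0567 and 0.110 for *Igf1r* and between 0.0566 and 0.0980 for *Igf2r*.

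**Figure D1:**
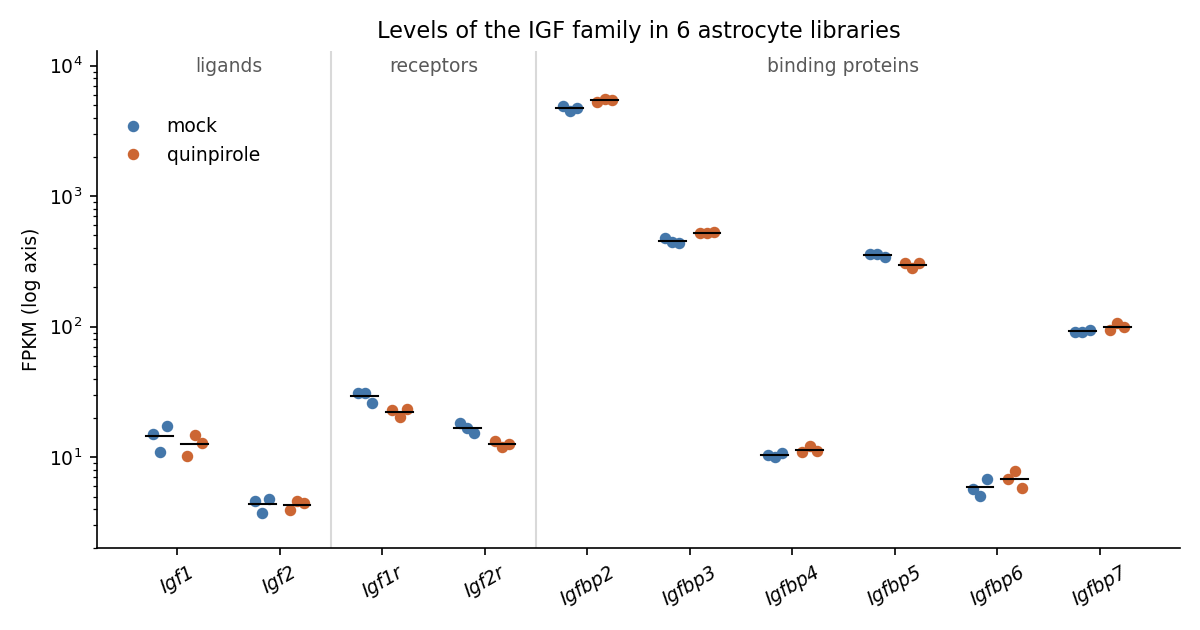
FPKM of each family member in the 3 mock and 3 quinpirole libraries (points), on a log axis, with the mean of each group as a black line. The quinpirole points of *Igf1r*, *Igf2r* and *Igfbp5* all lie below the mock points, those of *Igfbp2*, *Igfbp3* and *Igfbp4* all lie above them, and the other 4 genes overlap.

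*Igfbp2*, which encodes a binding protein found in brain and cerebrospinal fluid, stood at place 2 among all genes in every library. It had 4880, 4529 and 4726 FPKM in the mock libraries and 5246, 5538 and 5436 FPKM in the quinpirole libraries. The groups did not overlap. The mean increased by 14.8%, from 4712 ± 176 to 5407 ± 148 FPKM (SD, n = 3), with a log2 fold change of 0.20 ± 0.05 (SE) and a limma adjusted p of 0.0493. With any library left out it no longer passed, with adjusted p-values of 0.0609 to 0.163.

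*Igfbp3* (ENSMUSG00000020427, chr11:7206086-7213923, minus strand), the gene of the main carrier of IGFs in blood, was likewise higher. It had 480, 449 and 439 FPKM in the mock libraries and 523, 519 and 529 FPKM in the quinpirole libraries. All quinpirole values exceeded the highest mock value, and they lay closer together than the mock values. These values, like those of *Igfbp2*, were not divided by the FPKM sum of the library, which was higher in every quinpirole library. The mean increased by 14.9%, from 456 ± 20.9 to 524 ± 5.35 FPKM (SD, n = 3), with a log2 fold change of 0.20 ± 0.04 (SE) and a limma adjusted p of 0.0333. With any library left out it no longer passed, and the adjusted p was 0.0512 to 0.116.

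*Igfbp5*, whose product also binds extracellular matrix, went the other way. It had 362, 359 and 340 FPKM in the mock libraries and 307, 280 and 306 FPKM in the quinpirole libraries, with no overlap. The mean fell by 15.9%, from 354 ± 12 to 298 ± 15.4 FPKM (SD, n = 3), with a log2 fold change of -0.25 ± 0.05 (SE) and a limma adjusted p of 0.0288. It passed without mock 3 (0.0332), and without any other library the adjusted p was 0.0557 to 0.103.

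*Igfbp2* (ENSMUSG00000039323, chr1:72824503-72852474, plus strand) and *Igfbp5* (ENSMUSG00000026185, chr1:72857932-72874884, minus strand) are neighbours, with their 3′ ends facing each other across 5457 bases and no annotated gene between them. The neighbours thus moved in opposite directions. Within a library, *Igfbp2* was 13.5, 12.6 and 13.9 times the *Igfbp5* level in mock 1 to 3, and 17.1, 19.8 and 17.7 times in quinpirole 1 to 3. The ratio of *Igfbp3* to *Igfbp5* was 1.32, 1.25 and 1.29 in the mock libraries and 1.71, 1.85 and 1.73 in the quinpirole libraries. Neither ratio overlapped between the groups. That outcome was fixed by the values above, because *Igfbp2* and *Igfbp3* rose and *Igfbp5* fell, each without overlap. A ratio within a library does not depend on the total to which that library was scaled, but it does keep any effect of the length of the genes.

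**Figure D2:**
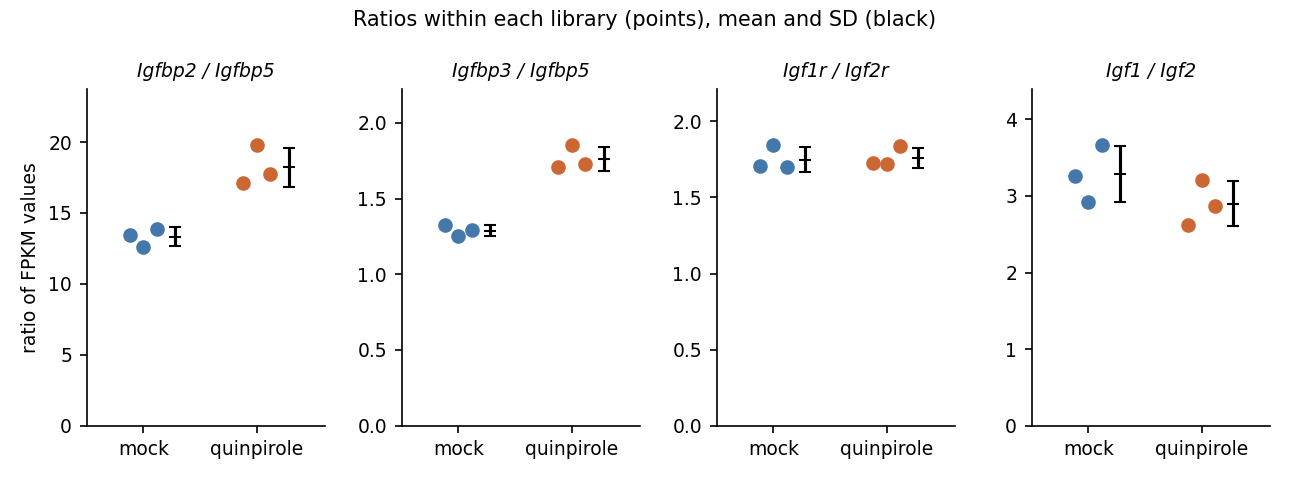
Ratios of FPKM values within each library for 4 pairs of family members, with mock and quinpirole libraries as points and the mean and SD in black. The *Igfbp2* to *Igfbp5* ratio was 13.3 ± 0.656 in mock and 18.2 ± 1.40 in quinpirole libraries, and the *Igfbp3* to *Igfbp5* ratio 1.29 ± 0.0371 and 1.76 ± 0.0794. Both *Igfbp5* ratios were bound to be apart, because their genes moved in opposite directions without overlap. The ratios of the receptors and of the ligands overlapped between the groups.

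The other 3 binding proteins did not pass the test. *Igfbp4* (ENSMUSG00000017493, chr11:99041244-99054392, plus strand), whose product is cut by the protease encoded by *Pappa*, had 10.4, 10.02 and 10.7 FPKM in the mock libraries and 10.9, 12.1 and 11.2 FPKM in the quinpirole libraries. Its quinpirole values lay just above its mock values. Of its longest transcript, 8.07% also occurs in transcripts of 193 other genes, so reads there may not be its own. The log2 fold change was 0.13 with a 95% interval of -0.00 to 0.25 and a limma adjusted p of 0.164. *Igfbp6* (ENSMUSG00000023046, chr15:102144362-102149511, plus strand), whose product prefers the *Igf2* ligand, had 5.76, 5.08 and 6.76 FPKM against 6.83, 7.90 and 5.82 FPKM. Its groups overlapped, with a log2 fold change of 0.19, an interval of -0.09 to 0.48 and a limma adjusted p of 0.317. An estimated 144 to 223 fragments per library stood behind these values, which gives a counting error of 6.69% to 8.33%.

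*Igfbp7* (ENSMUSG00000036256, chr5:77349240-77408041, minus strand), whose product binds IGFs weakly and is abundant in vessels, had 91.7, 91.0 and 93.8 FPKM in the mock libraries and 93.6, 106 and 98.9 FPKM in the quinpirole libraries. Quinpirole 1 fell inside the mock range. The log2 fold change was 0.11, with an interval of -0.01 to 0.23 and a limma adjusted p of 0.182. Of 12 endothelial markers, 4 had a mean of at least 1 FPKM and *Pecam1* and *Tie1* were under 0.1 FPKM in every library. The 12 markers summed to 54.7 to 56.1 FPKM in mock and 53.2 to 55.5 FPKM in quinpirole libraries. Exons of *Igfbp7* and of *Polr2b* on the opposite strand share 85 nucleotides, and because the counting is not stated to use strand, reads there cannot be assigned to a gene.

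The 6 binding proteins together summed to 5829, 5444 and 5617 FPKM in the mock libraries and to 6188, 6463 and 6388 FPKM in the quinpirole libraries, without overlap. The FPKM sum over all genes was also higher in every quinpirole library, and the binding protein sum was not divided by it. The binding protein sum is mostly *Igfbp2*, which made up 83.2% to 84.1% of it in mock and 84.8% to 85.7% in quinpirole libraries. Of the 4 mural markers tested, *Pdgfrb* and *Notch3* passed and were lower, with log2 fold changes of -0.30 and -0.38, against 5.18% of all tested genes. *Pdgfrb* alone still passed after the correction for transcript length. *Acta2* and *Tagln*, which make up most of the mural sum, were each at 0.11 with no overlap between the groups and did not pass (limma adjusted p 0.171 and 0.199). Of 5 tested fibroblast markers 1 passed, *Col1a1*, which was lower at -0.34. Over all 53 markers tested 9 passed, 3 higher and 6 lower, against 10.9% of all tested genes. The 3 higher were 1 of 11 tested for microglia, 1 of 1 for oligodendrocyte precursors and 1 of 3 for neurons. After the length correction 1 neuronal marker passed higher and 4 markers of other types lower, against 2.09% and 2.06% of all tested genes. The part of these cell types in the changes of the binding proteins was not tested.

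The ligands were expressed at much lower levels. *Igf1* (ENSMUSG00000020053, chr10:87858265-87937042, plus strand), which microglia and some neurons of the adult brain are known to produce, had 15.2, 11.0 and 17.4 FPKM in the mock libraries and 10.3, 14.9 and 12.8 FPKM in the quinpirole libraries. The groups overlapped widely. The log2 fold change was -0.18 ± 0.18 (SE), with a 95% interval of -0.59 to 0.23 and a limma adjusted p of 0.521, so a decrease as large as that of the receptors lies within the interval. What part microglial RNA has in the *Igf1* level was not tested.

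*Igf2* (ENSMUSG00000048583, chr7:142650766-142666816, minus strand), an imprinted gene of the leptomeninges and choroid plexus in adult brain, had 4.64, 3.76 and 4.76 FPKM in the mock libraries and 3.92, 4.64 and 4.45 FPKM in the quinpirole libraries. These values overlapped almost completely, with a log2 fold change of -0.01 ± 0.09 (SE), an interval of -0.23 to 0.21 and a limma adjusted p of 0.947. The level itself is uncertain, because 76.2% of the longest *Igf2* transcript also occurs in the overlapping gene model *Gm49394*, which has no row in the tables. Choroid plexus markers summed to 39.3 to 43.9 FPKM in mock and 40.3 to 43.2 FPKM in quinpirole libraries, with *Kl*, *Slc4a5* and *Prlr* under 0.1 FPKM in every library.

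Mock 2 was the lowest of the mock libraries and quinpirole 1 the lowest of the quinpirole libraries for both ligands. The genes whose deviations from their own mean over the 6 libraries were most like those of *Igf1* were *Trex1*, *Fcgr2b* and *Trip12*, with mean absolute differences of 0.0677, 0.0897 and 0.0931 on the log2 scale. *Fcgr2b* encodes an Fc receptor of immune cells and *Trex1* a DNA exonuclease. For *Igf2* they were *Ddit3*, *Smyd3* and *Dusp28*, at 0.0204, 0.0254 and 0.0262. *Igf2* itself came at place 66 for *Igf1*, and *Igf1* at place 8309 for *Igf2*, with the same difference of 0.138. Such values over 6 libraries describe a likeness only.

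Ordered by mock mean, *Igfbp2* was followed by *Igfbp3*, *Igfbp5*, *Igfbp7*, *Igf1r*, *Igf2r*, *Igf1*, *Igfbp4*, *Igfbp6* and *Igf2*. *Igfbp3* and *Igfbp5* stood at places 80 and 129 among all genes, whereas *Igf1r* was at place 2668, *Igf1* at place 5138 and *Igf2* at place 9448. The ranges of *Igf2r* and *Igf1* overlapped in both groups, and those of *Igf1* and *Igfbp4* overlapped in the quinpirole group only. Other neighbours in the order did not overlap in either group.

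**Figure D3:**
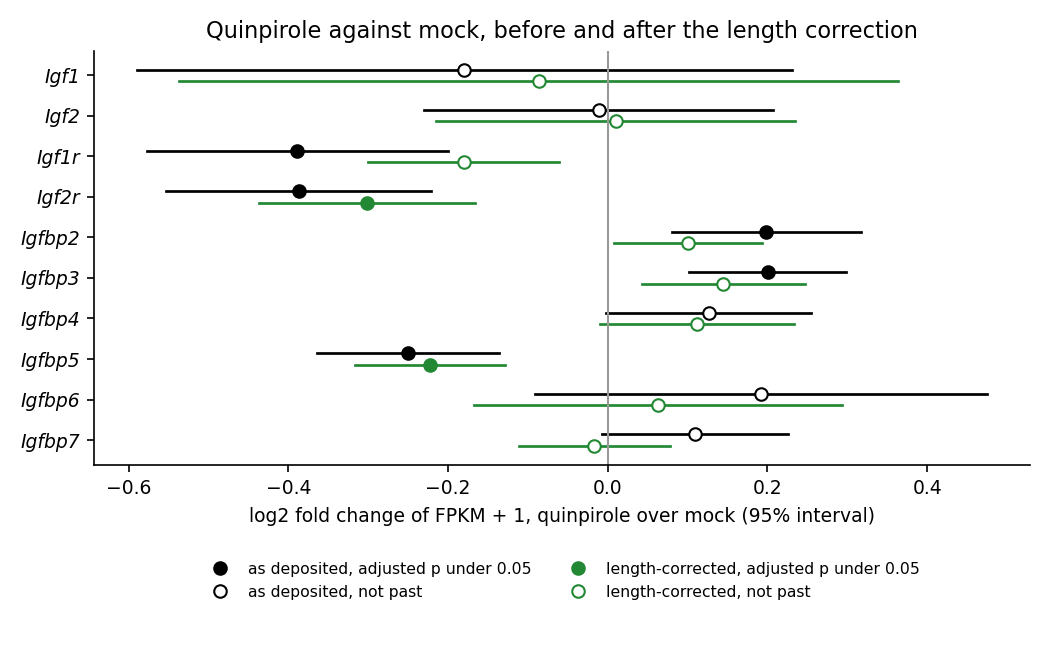
Log2 fold change, quinpirole over mock, on log2(FPKM + 1) with 95% intervals for the 10 members, before and after removal of the relation to exonic length. After the correction *Igf2r* (-0.30) and *Igfbp5* (-0.22) still passed the test, while *Igf1r*, *Igfbp2* and *Igfbp3* no longer did.

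Across all genes, the fold change was related to transcript length. Genes were divided by exonic length into 5 bins of equal size. The shortest bin (102 to 2514 nucleotides) had a median log2 fold change of 0.12, and the longest (7767 to 123179 nucleotides) of -0.11. *Igf1r*, *Igf1* and *Igf2r*, with 16791, 9904 and 9308 nucleotides of exons, are in the longest bin. *Igfbp2*, *Igfbp7* and *Igfbp6*, with 1847, 1209 and 1112, are in the shortest. *Igfbp3*, *Igfbp4* and *Igfbp5* have 3130, 4416 and 6006 nucleotides.

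Each library's deviations were therefore also fitted against length and the fit removed, a step that would remove a true change related to length as well. This took -0.21 from the log2 fold change of *Igf1r*, which became -0.18 with a limma adjusted p of 0.0840. It took -0.09 from *Igf2r*, which stayed past the threshold at -0.30 and 0.0425. *Igfbp5* was hardly affected, at -0.22 with a limma adjusted p of 0.0390. *Igfbp2* moved to 0.10 (adjusted p 0.165) and *Igfbp3* to 0.14 (0.0960).

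The corrected values leave *Igf2r* and *Igfbp5* as the members that passed with and without the length relation, both lower after quinpirole, against 4.15% of all genes that passed after the correction, 2.09% higher and 2.06% lower. With GC content removed as well, 3.06% of all genes passed, *Igf2r* was at -0.29 (limma adjusted p 0.0485) and *Igfbp5* at -0.22 (0.0470). *Igf1r*, *Igfbp2* and *Igfbp3* did not pass there, at -0.18 (limma adjusted p 0.0933), 0.16 (0.0547) and 0.16 (0.0896). Under median ratio scaling *Igfbp2* was at 0.18 (limma adjusted p 0.0548) and *Igfbp3* at 0.19 (0.0419). *Igfbp2* kept the same rank in every library, so quantile normalization gave it a log2 fold change of 0.00 by construction, which tests nothing for this gene, and *Igfbp3* was then at 0.05 with a limma adjusted p of 0.608. *Igf1r*, *Igf2r* and *Igfbp5* passed under quantile normalization, as did 6.39% of all tested genes.

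**Figure D4:**
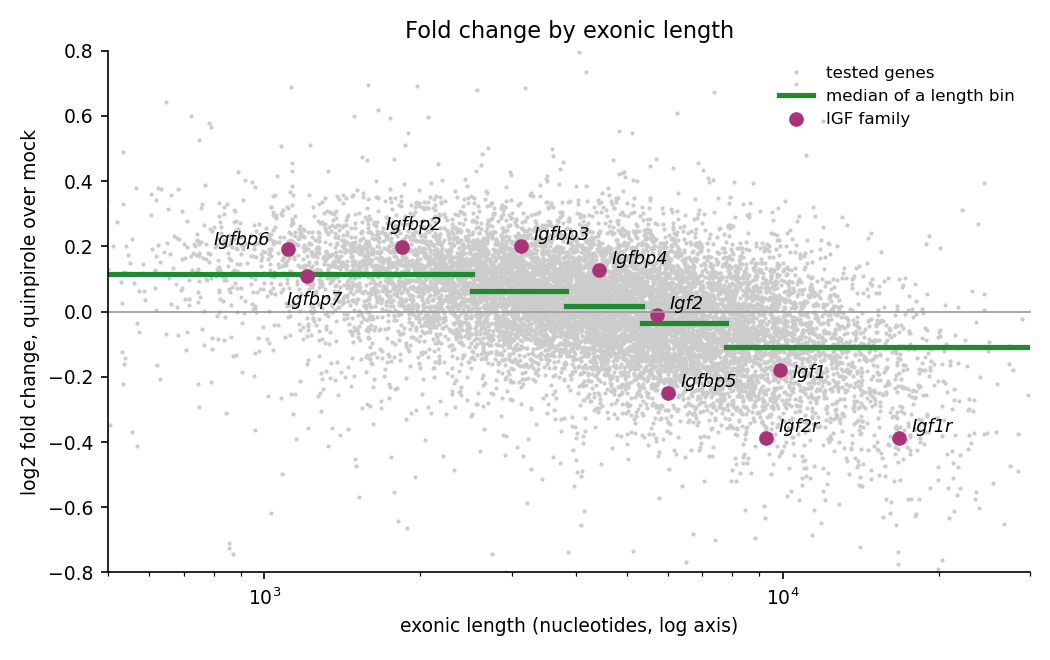
Log2 fold change, quinpirole over mock, on log2(FPKM + 1) against exonic length on a log axis for the tested genes (grey), the median of each of the 5 length bins (green lines) and the 10 members (purple). The medians decline from 0.12 to -0.11, and 113 genes are outside the axes. *Igf1*, *Igf1r*, *Igf2r* and *Igfbp5* lie below the line of their bin, and *Igfbp7* lies just below its line.

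Genes that act around the receptors were taken from a list of 50, chosen with earlier results of these data known. Of these, 49 had a row and 42 were tested. In limma 10 passed, 2 higher and 8 lower, against 10.9% of all tested genes (5.74% higher and 5.18% lower). The median log2 fold change of the 42 was -0.09. After the length correction 4 passed, 2 in each direction, with a median of -0.05, against 4.15% of all tested genes. Of the extracellular regulators of IGFs, 6 of 10 could be tested and 0 passed in limma, against 10.9% of all tested genes. At an unadjusted limma p under 0.05 there was 1 of the 6, against 3839 of the 12255 tested genes. *Pappa*, the protease that frees ligand from the *Igfbp4* product, had 1.57, 1.48 and 1.12 FPKM in mock and 1.08, 0.994 and 1.16 FPKM in quinpirole libraries, with overlap and a limma adjusted p of 0.202. *Igf2bp2*, which encodes a protein that binds *Igf2* mRNA, was at 6.72 ± 0.261 and 7.33 ± 0.191 FPKM (SD, n = 3), with a limma adjusted p of 0.207.

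*Irs1* and *Irs2*, adaptors that carry the signal from the IGF and insulin receptors, were lower. *Irs1* had 16.0, 15.9 and 14.8 FPKM in the mock libraries and 12.4, 11.5 and 12.4 FPKM in the quinpirole libraries, a log2 fold change of -0.34 ± 0.05 (SE) with a limma adjusted p of 0.0236. *Irs2* had 72.0, 72.5 and 70.4 FPKM against 60.7, 56.2 and 62.8 FPKM, a log2 fold change of -0.26 ± 0.05 with a limma adjusted p of 0.0258. Neither overlapped between the groups, and both still passed after the length correction (-0.26 and -0.22, with limma adjusted p-values of 0.0363 and 0.0390). With GC content removed as well, *Irs1* was at -0.25 (limma adjusted p 0.0410) and *Irs2* no longer passed, at -0.18 (0.0549). *Insr*, the insulin receptor, had 9.53, 8.96 and 7.59 FPKM against 7.49, 6.59 and 7.68 FPKM. Quinpirole 3 was above mock 3, and the log2 fold change of -0.23 had a limma adjusted p of 0.134. In the insulin receptor and adaptor list 2 of 10 tested genes, *Irs1* and *Irs2*, passed, against 10.9% of all tested genes, with a list median of -0.15 (log2). After the length correction 2 of the 10 passed, against 4.15% of all tested genes, and the list median was -0.08.

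In the list of PI3K, Akt, mTOR and FoxO genes, 8 of 23 tested genes passed, 2 higher and 6 lower, against 10.9% of all tested genes, with a median log2 fold change of -0.12. After the length correction 2 of the 23 passed, both higher, against 4.15% of all tested genes (2.09% higher), and the list median was -0.07. *Eif4ebp1*, a repressor of translation that mTOR inactivates, had 58.0, 59.5 and 60.9 FPKM in mock and 72.6, 77.4 and 76.0 FPKM in quinpirole libraries. *Rheb*, the small GTPase that activates mTOR, had 48.9, 48.3 and 49.6 FPKM against 54.5, 61.7 and 57.8 FPKM. All quinpirole values of these genes were higher, with log2 fold changes of 0.33 and 0.24 and limma adjusted p-values of 0.0225 and 0.0322, and both passed after the length correction (0.24 and 0.30). With GC content removed as well, *Eif4ebp1* passed at 0.24 (limma adjusted p 0.0357) and *Rheb* did not, at 0.27 (0.0533).

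The genes that fell were *Mtor* (-0.25) and its partner *Rictor* (-0.30), *Tsc1* (-0.24) and *Tsc2* (-0.19), whose products together restrain *Rheb*, the PI3K subunit *Pik3r1* (-0.28) and the transcription factor *Foxo3* (-0.27), which Akt keeps out of the nucleus. Their limma adjusted p-values were 0.0277 for *Foxo3* and 0.0447 to 0.0481 for the other 5. None of these 6 passed after the length correction, though *Foxo3* stayed at -0.21 (limma adjusted p 0.0508) and *Pik3r1* at -0.19 (0.0878). *Mtor* was then at -0.15, *Tsc1* at -0.11, *Tsc2* at -0.10 and *Rictor* at -0.09, with limma adjusted p-values of 0.173 to 0.367. Without mock 3, 6 of the 42 listed genes passed, against 1215 of all tested genes, which number 12255 with every library kept. Without quinpirole 3, 2 of the 42 passed, against 210 of all tested genes. Without any other library 0 of the 42 passed in limma, against 3 to 25 of all tested genes. In those fits 12 to 14 of the 42 had an unadjusted limma p under 0.05, against 2891 to 3374 of all tested genes.

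**Figure D5:**
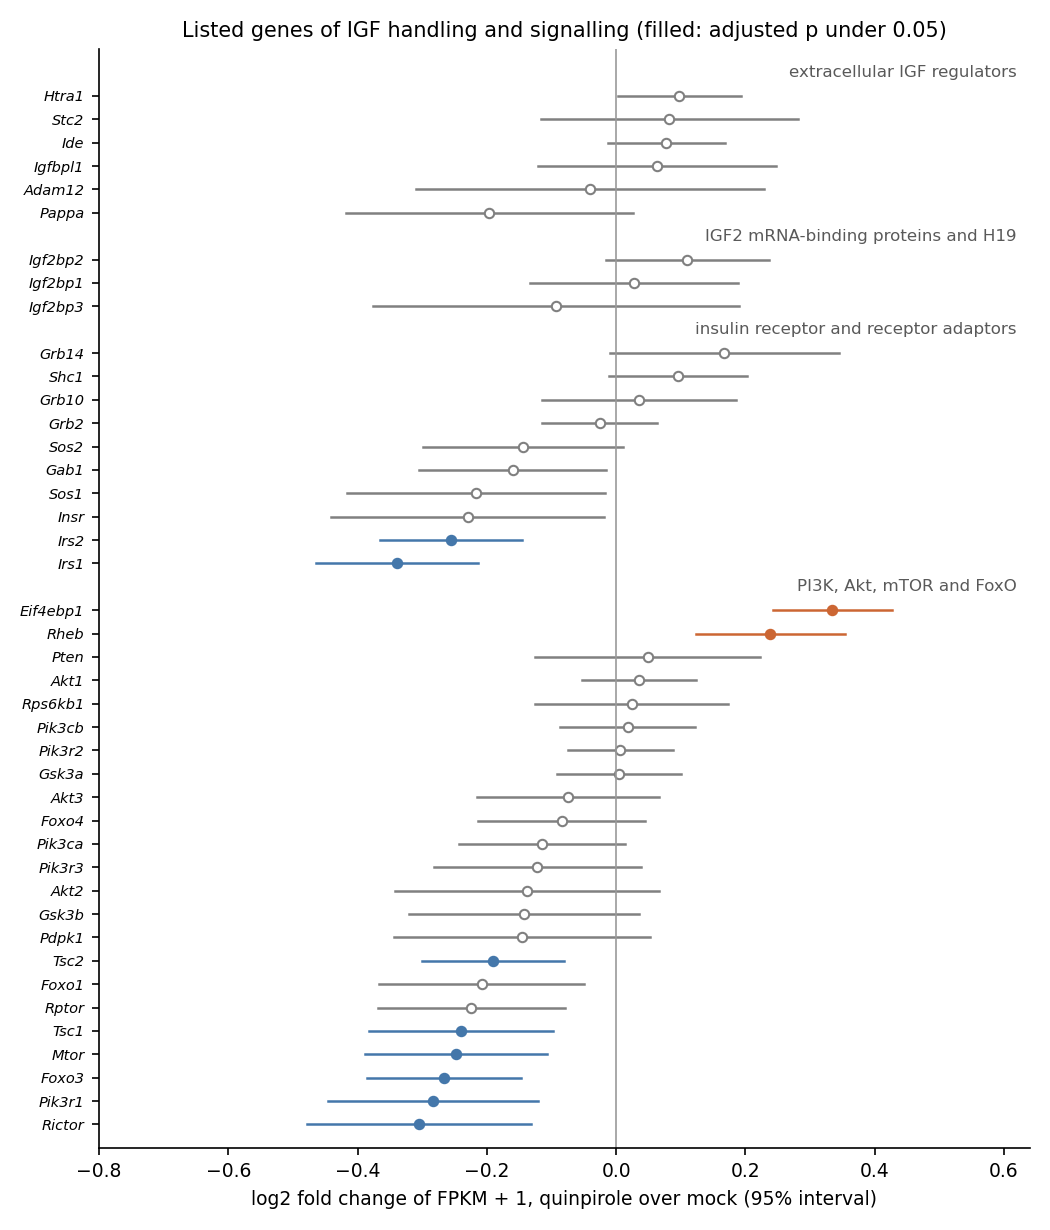
Log2 fold change, quinpirole over mock, on log2(FPKM + 1) with 95% intervals for the 42 tested genes of the lists, before any length correction. Filled points passed the test (*Irs1*, *Irs2* and 6 others lower in blue, *Eif4ebp1* and *Rheb* higher in orange), and open points did not.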

How the data were processed

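Astrocyte mRNA was sequenced in 3 mock and 3 quinpirole libraries, grouped by the treatment given in the labels. The authors mapped reads with TopHat2 and deposited a table of FPKM per library, with 1 value for each gene. The submitters' processing notes name GRCm38, and the version of TopHat2 and the program that computed FPKM are not given in the sources used here. FPKM values are already divided by length and depth, so no counts were tested.

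Gene IDs were matched to symbols for 17090 of 17193 genes, and positions and exonic lengths were taken from GENCODE M21, whereas the annotation the authors used for FPKM may differ. Promoters were RefSeq windows, and all 10 members had an entry. Depth was estimated from 1254 genes with 1 transcript of at least 2000 nucleotides, of whose low values 58.1% to 75.8% lay within 0.1 of a whole fragment. No pair of libraries had equal values in over 1% of all genes, counting only genes with a mean of at least 1 FPKM.

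Linear models were fitted with limma 3.58.1 (R 4.3.3) on log2(FPKM + 1) of 12255 genes, with eBayes and a mean-variance trend, and two-sided p-values were adjusted over these genes after Benjamini and Hochberg. This is a scale that understates the change of low genes. In simulated data with 200 changed genes, the fit recovered 144 at a log2 change of 0.5 and 188 at 1. It called 8 and 20 unchanged genes. Changes as small as those of the members were not simulated. The length correction subtracted a loess fit (span 0.3) of each library's deviation from the gene mean on log2 exonic length. No member was under the filter, so the exact permutation test planned for such members was not needed. Alternatives tried were no filter, a minimum mean of 5 FPKM, a pseudocount of 0.1, median ratio scaling, quantile normalization, eBayes without trend or with robust estimation, the replicate number as a block, GC content, and omission of each library.

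The members and lists were chosen with earlier results of these data known. Genes named are the members, 5 listed pathway genes (*Insr*, *Irs1*, *Irs2*, *Pappa*, *Igf2bp2*), listed genes past the threshold, and the 3 genes most like each ligand. Markers are named as a check on cell types. Of the other marker lists, ependymal markers summed to 168 to 187 FPKM in mock and 166 to 177 FPKM in quinpirole libraries, oligodendrocyte markers to 158 to 178 and 165 to 176, precursor markers to 10.8 to 12.3 and 13.3 to 15.1, neuronal markers to 74.0 to 79.2 and 86.4 to 92.9, and fibroblast markers to 130 to 146 and 106 to 120. Tables and figures were made in Python 3.11.15 with pandas 2.3.3, numpy 2.4.6 and matplotlib 3.10.9.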

Additional observations from a re-analysis of the deposited data

How the results depend on the processing

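The numbers of calls depended on the settings, whereas the 5 members that passed kept their direction under all 17 alternatives, apart from *Igfbp2* at 0.00 under quantile normalization. For most alternatives this was fixed in advance. Settings that change only the filter, the variance estimate or the block leave the fold change as it is. Leaving out 1 library cannot reverse a gene whose groups do not overlap. Of 1339 genes, 5 members and 10 listed pathway genes past the threshold, 633, 1 and 4 remained in number without the filter on low values, 783, 3 and 4 with quantile normalization, and 714, 2 and 5 with eBayes without trend. The length correction left 509, 2 and 4, and the correction for length and GC content 375, 2 and 2. Among all genes called, 52.6% were higher, against 36.1% with quantile normalization and 41.0% without trend. Without 1 library the counts ranged from 3 to 1215 genes, 0 to 3 members and 0 to 6 pathway genes, highest without mock replicate 3, and limma then gave 2891 to 3920 genes, 5 to 7 members and 12 to 19 pathway genes at an unadjusted p under 0.05. *Igf1r* passed under 7 of 17 alternatives, *Igf2r* under 10, *Igfbp5* under 8, *Igfbp3* under 4 and *Igfbp2* under 3.

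The labels do not say whether the replicate numbers pair the libraries. Same-numbered libraries correlated at 0.03, -0.07 and -0.10 in their deviations from the group means, and pairs with different numbers at -0.10 to 0.15. With 3 libraries per group, these values cannot settle whether the libraries were paired. With the replicate number as a block, limma called 2 genes, 0 members and 0 pathway genes, and with the block and the length correction 0, 0 and 0. At an unadjusted p under 0.05 there were 3308 genes, 5 members and 13 pathway genes with the block, and 2723, 4 and 11 with both.

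*Igf2* changed sign, to 0.021 with quantile normalization, 0.0099 with the length correction, 0.040 with length and GC content and 0.0099 with the block and length correction. Without 1 library it ran from -0.098 to 0.046. It has no value at a mean of at least 5 FPKM. *Igfbp7* changed sign to -0.017 with the length correction, with or without the block, but was at 0.045 with length and GC content. Neither was past the threshold under any alternative, and the cause was not tested. Depth limits the genes of low level most, and a counting error could be estimated for *Igfbp6*, the member with 1 annotated transcript.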
